A study of Mus musculus with 16 samples.

Results

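The genes that let B cells present antigen on MHC class II were followed through chromatin accessibility in activated mouse splenic B cells. The set holds 10 genes: the transactivator gene Ciita, the invariant chain gene Cd74, the classical chain genes H2-Aa, H2-Ab1 and H2-Eb1, the peptide exchange genes H2-DMa, H2-DMb1 and H2-DMb2, and the genes H2-Oa and H2-Ob of the exchange inhibitor. They were found by symbol among 21755 protein-coding genes of the GRCm38 annotation. Their regions were taken from 8 lists of ATAC-seq peaks (sites where the Tn5 transposase inserted adapters more often than in the surrounding DNA). A promoter region overlapped a window reaching 1000 bp before and 100 bp past an annotated start of a member, and any other region lay in the gene body or within 10000 bp of it. Of 16566 regions combined over the 8 lists, 18 met this rule, 13 at promoters and 5 elsewhere.

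Class II molecules are heterodimers of an alpha and a beta chain that display peptides from endosomes to CD4+ T cells. B cells express them constitutively, and IL-4 is known to raise their level at the surface. The invariant chain occupies the groove during transport, DM exchanges its remnant for peptide, and DO restrains DM. Transcription depends on CIITA, a coactivator without DNA binding of its own that is recruited by RFX, CREB and NF-Y to the X, X2 and Y boxes upstream of class II starts.

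The cells were B cells of C57BL/6 mice, separated from spleen with CD43 beads and cultured with LPS at 10 µg/mL and IL-4 at 20 ng/mL. The labels give 72 hours of culture, while 96 hours stands in the design text of the series. All mice carried CD23Cre +/-, a Cre active in mature B cells, and no Cre-negative ATAC-seq library was analysed here. The 4 Brg1fl/+ libraries, with 1 floxed allele of the chromatin remodeler gene Brg1, served as controls, and the 4 Brg1fl/fl libraries carried floxed alleles only. A peak list gives no check of the deletion itself. Each library was made from 50000 cells, and the labels give neither ages nor which libraries share a mouse, so p-values measure only the spread between these libraries, which may be technical. The file names group libraries 1 with 2 and 3 with 4 of each genotype.

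Sequences of the class II promoters are shown first, because several of the promoter peaks described further on cover these boxes. RefSeq promoter windows of 300 bases (250 before and 50 after a start, GRCm38) matched 7 of the 10 members in 8 windows, and Ciita, Cd74 and H2-Ab1 were not matched. Searched on both strands, the X box AACNGATG was present in 3 of the 8 windows and in 2.32% of 32817 windows of all genes. The short X core GCAAC was present in 5 of 8 (35.2% of all), the Y box ATTGG in 7 of 8 (37.4%) and the X2 box TGACG in 1 of 8, that of H2-Aa (20.8%). GCAAC can overlap AACNGATG, as it does in H2-Eb1. GCAAC followed by ATTGG on the same strand within 45 bases occurred in 4 of 8 windows against 1.76% of all windows, in H2-Oa, H2-Ob, H2-Aa and H2-Eb1. In H2-DMb1 and H2-DMb2, AACNGATG took the place of GCAAC. The 6 stretches below run 5′ to 3′ on the strand of the gene, from 30 bases before the X element to 30 bases after the Y box, with both elements in capitals.

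H2-Oa, chr17:34092273-34092370, plus strand: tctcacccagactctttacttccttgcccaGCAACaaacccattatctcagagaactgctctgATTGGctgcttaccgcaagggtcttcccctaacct
H2-DMb2, chr17:34145098-34145193, plus strand: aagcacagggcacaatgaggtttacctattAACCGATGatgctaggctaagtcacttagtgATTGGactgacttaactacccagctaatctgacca
H2-DMb1, chr17:34153069-34153164, plus strand: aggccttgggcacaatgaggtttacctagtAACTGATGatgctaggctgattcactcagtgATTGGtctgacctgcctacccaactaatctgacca
H2-Ob, chr17:34238788-34238882, plus strand: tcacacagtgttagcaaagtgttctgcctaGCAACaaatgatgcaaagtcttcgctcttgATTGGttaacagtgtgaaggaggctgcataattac
H2-Aa, chr17:34287837-34287934, minus strand: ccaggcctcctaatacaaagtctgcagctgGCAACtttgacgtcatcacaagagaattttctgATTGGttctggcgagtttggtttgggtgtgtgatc
H2-Eb1, chr17:34305746-34305842, plus strand: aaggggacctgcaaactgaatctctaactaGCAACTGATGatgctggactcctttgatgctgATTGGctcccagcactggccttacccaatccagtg

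The X and Y elements began 30 to 33 bp apart in all 6 stretches. A peak covered the whole module in 2 Brg1fl/+ and 2 Brg1fl/fl libraries at H2-DMb1, in 2 and 1 at H2-Aa, in 2 and 0 at H2-Ob and in 1 and 0 at H2-DMb2. No library had a peak over the module of H2-Oa or of H2-Eb1, although H2-Eb1 had a peak farther upstream in 7 of the 8 libraries. A match of letters is a description and does not show that a factor was bound. The windows were poor in CpG, with an observed over expected ratio of 0 to 0.184 in 7 of the 8, against a median of 0.383 over all windows, and the exception was a window of H2-DMa at 0.731. The letters searched for EICE (GGAANNGAA, 8.25% of all windows) and NF-kB (GGGANTTTC, 1.11%) were in none of the 8 windows, and those for AP-1 (TGANTCA, 7.81%) were in 2.

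A deeper library gives a longer peak list, and a region without a peak may still have been open below what the depth could show. The lists held 6372 to 14614 peaks in Brg1fl/+ and 6271 to 9216 in Brg1fl/fl. The number of fragments at each summit was recovered from the deposited fold and −log10 p, and a factor per library from regions found in all 8 (0.583 to 1.92 in Brg1fl/+, 0.565 to 1.22 in Brg1fl/fl) put these numbers on a common scale, called the scaled summit height here. Divided by the lowest background of the library, this factor was 1.32 ± 0.215 (SD, n = 4) in Brg1fl/+ and 0.747 ± 0.0334 (SD, n = 4) in Brg1fl/fl, with no overlap of the genotypes (two-sided exact permutation test over 70 assignments, p = 0.0286, the smallest possible). Shared peaks thus stood less far above background in Brg1fl/fl libraries, and the part of this in the detection counts that follow was not tested. Scaled heights are centred on these shared regions, so lower and higher calls are relative to them and not to library background. Within a genotype, the counts of libraries varied about as much as sampling alone gives: the dispersion over 4558 regions, where 1 is sampling noise, was 0.812 to 0.883 between Brg1fl/fl libraries. In Brg1fl/+ it was 0.883 for libraries 1 and 2 and 0.769 for 3 and 4, and 0.938 to 1.23 for the other pairs, against 1.09 to 2.3 between genotypes. Each library is counted as 1 here, and heights are also given with libraries averaged in pairs where that ends a call.

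A promoter region was found in at least 1 library at 9 of the 10 members (48.1% of all protein-coding genes), the exception being H2-Oa. It was found in all 8 libraries at 2 of the 10, Cd74 and H2-DMa, against 22.4% of all protein-coding genes. Of the 13 promoter regions, 7 had a peak in fewer Brg1fl/fl than Brg1fl/+ libraries, 1 in more and 5 in equal numbers. Over all 10326 promoter regions, 37.4% had fewer and 11.3% more. Of the 5 other regions, 4 had fewer, 0 had more and 1 was equal, where 63.3% of all 6240 regions outside promoters had fewer and 25.5% had more. The region at the promoter of the neighbour H2-Eb2 is 1 of these 4, though the shares count it among the 10326 promoter regions. A peak in Brg1fl/+ only was seen at 7 of the 18 regions, and in Brg1fl/fl only at 1, against 35.1% and 7.42% of all combined regions.

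These counts rest largely on 2 libraries. Brg1fl/+ libraries 1 and 2 each detected 15 of the 18 regions, and libraries 3 and 4 each detected 7. Brg1fl/fl libraries 1, 2 and 3 each detected 7 and library 4 detected 9. All 7 regions confined to Brg1fl/+ were seen in library 1, library 2 or both and nowhere else. Brg1fl/+ library 2 and Brg1fl/fl library 1, whose factors were 1.23 and 1.22, detected 83.3% and 38.9% of the member regions and 67.1% and 55.2% of all combined regions. They were not matched in height above background, as their factors divided by the lowest background were 1.53 and 0.727. With Brg1fl/+ libraries 3 and 4 alone set against the 4 Brg1fl/fl libraries, 2 of 9 promoter regions had a peak in fewer Brg1fl/fl libraries and 3 in more. When each list was cut to its best 6271 peaks, the length of the shortest list, 2 of 7 promoter regions had fewer and 1 had more. The shares over all promoter regions given above are for the full lists of all libraries. None is given here for these settings, so the member counts in them have no background to be read against.

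**Figure D1:**
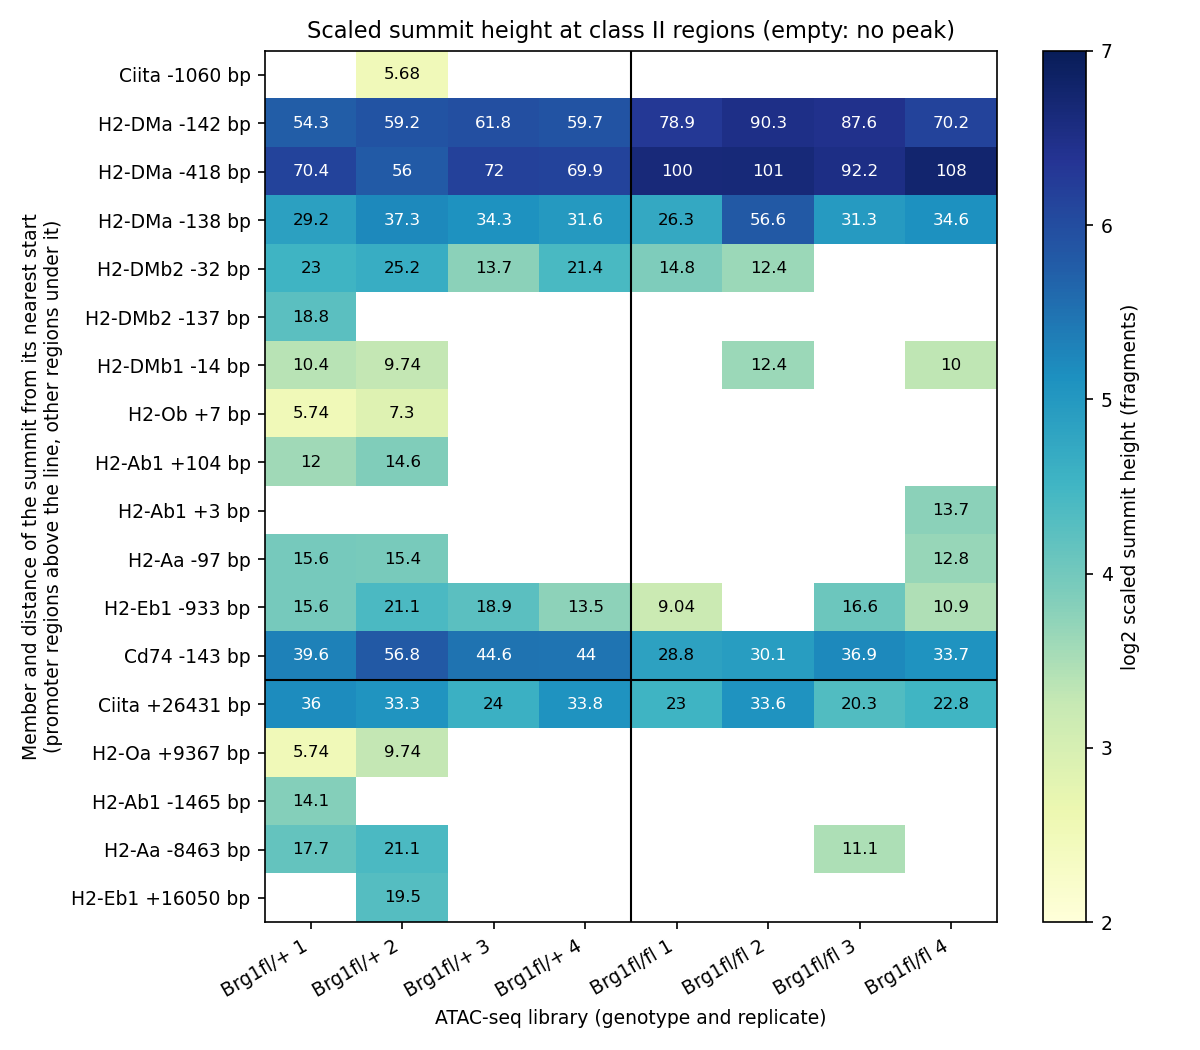
Scaled summit height (fragments, colour on a log2 scale) of the 18 class II regions in the 8 ATAC-seq libraries, named by member and distance of the summit from the nearest start in bp, with an empty cell where the list held no peak. The 2 regions of H2-DMa near Brd2, its region at -138 bp, Cd74 at -143 bp and Ciita at +26431 bp are filled in all 8 columns, and most other cells are filled in Brg1fl/+ libraries 1 and 2.

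Ciita (ENSMUSG00000022504.10, chromosome 16, 10480059 to 10528418, plus strand), the master regulator of the pathway, had 8 annotated starts between 10480059 and 10489783. The only peak in a promoter window was a weak one in Brg1fl/+ library 2, from 10487022 to 10487242, with 7 fragments at the summit and a rank by q at 99.9% of its list, counted from the best peak. No promoter peak was detected in any other library. Ciita did have 1 region in all 8 libraries, in an intron 26431 bp downstream of its last start, from 10515844 to 10516460. The annotation also places an intron of Dexi there. The 200 bases around its summit, chr16:10516114-10516313 on the plus strand, held none of the motifs searched, so nothing is in capitals:

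Ciita intron: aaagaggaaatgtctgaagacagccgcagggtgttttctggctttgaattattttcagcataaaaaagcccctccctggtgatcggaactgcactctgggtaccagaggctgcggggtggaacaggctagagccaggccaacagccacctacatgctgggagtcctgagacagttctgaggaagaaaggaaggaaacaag

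Scaled summit heights at this intronic region were 36.0, 33.3, 24.0 and 33.8 fragments in Brg1fl/+ libraries 1 to 4 and 23.0, 33.6, 20.3 and 22.8 in Brg1fl/fl libraries 1 to 4. All Brg1fl/fl libraries but library 2 lay below every Brg1fl/+ library. The means were 31.8 ± 5.31 and 24.9 ± 5.93 (SD, n = 4), a log2 difference of -0.36 (SE 0.19, 95% interval -0.74 to 0.02). This did not pass the threshold of 0.05 (limma, adjusted p = 0.225 over 4558 regions). Across all other settings tried the difference stayed negative, with adjusted p from 0.0784 to 0.443.

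Cd74 (ENSMUSG00000024610.15, chromosome 18, 60803848 to 60812652, plus strand), which encodes the invariant chain, was the member whose promoter was lower in Brg1fl/fl. Its region, from 60803289 to 60803970 with the summit 143 bp upstream of the start, had a peak in all 8 libraries. Scaled heights were 39.6, 56.8, 44.6 and 44.0 fragments in Brg1fl/+ libraries 1 to 4 and 28.8, 30.1, 36.9 and 33.7 in Brg1fl/fl libraries 1 to 4, so the genotypes did not overlap. The mean fell from 46.3 ± 7.38 to 32.4 ± 3.67 (SD, n = 4), to 0.703 of the Brg1fl/+ level (log2 difference -0.51, SE 0.15, 95% interval -0.82 to -0.2; limma, adjusted p = 0.0265). Among all regions tested, 5.48% were called lower and 6.52% higher. The call was lost without Brg1fl/+ library 2, the highest of the 8 (log2 difference -0.41, adjusted p = 0.141), without Brg1fl/fl library 1 (-0.45, adjusted p = 0.087) and without Brg1fl/fl library 2 (-0.48, adjusted p = 0.0515). Averaging libraries in pairs also lost it (adjusted p = 0.051, and 0.102 when only Brg1fl/+ libraries were averaged).

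The surroundings of the Cd74 promoter differed with genotype too. Its local background was 3.61 to 5.99 times the lowest background of the library in Brg1fl/+ and 2.01 to 2.54 times in Brg1fl/fl. Over the peaks of a list, 85.7% to 94.7% had a lower local background than Cd74 in Brg1fl/+ and 72.9% to 83.3% in Brg1fl/fl. On the fold scale, which divides the summit by this background, the log2 difference was -0.34 (adjusted p = 0.244), while after subtraction of the local background it was -0.52 (adjusted p = 0.0315). The median over all regions on the fold scale was -0.17, which leaves -0.16 for Cd74 relative to it. In bulk ATAC-seq, fewer cells with an open promoter and less opening per cell cannot be told apart.

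**Figure D2:**
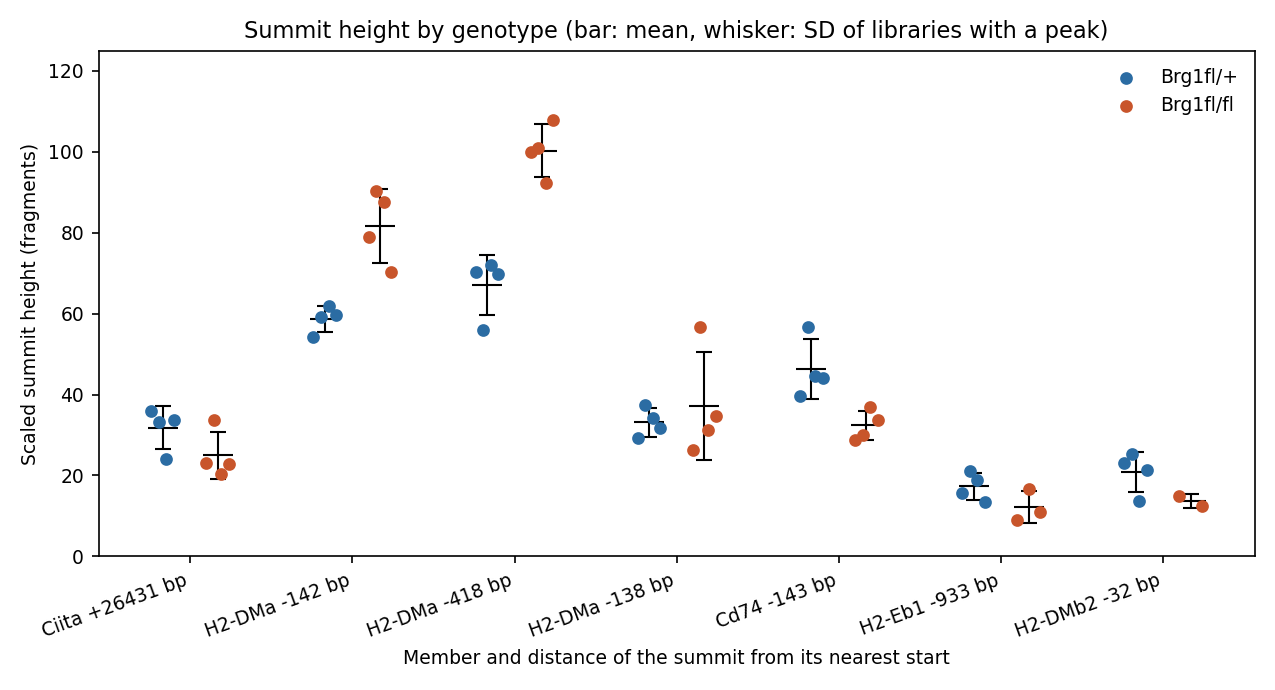
Scaled summit height (fragments) per library for the 5 class II regions with a peak in all 8 libraries and for H2-Eb1 at -933 bp and H2-DMb2 at -32 bp, where only libraries with a peak are drawn; points are libraries, bars are means and whiskers are SD. Brg1fl/fl points lie below all Brg1fl/+ points at Cd74 and above them at the 2 H2-DMa regions near Brd2, and the genotypes overlap at H2-DMa -138 bp and Ciita.

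The classical chains were poorly covered. H2-Aa (ENSMUSG00000036594.15, chromosome 17, 34282744 to 34287823, minus strand) encodes the alpha chain of I-A. Its promoter region, from 34287651 to 34287987, contains the X and Y elements printed above. It had heights of 15.6 and 15.4 fragments in Brg1fl/+ libraries 1 and 2 and 12.8 in Brg1fl/fl library 4, and no peak elsewhere. A further region 8463 bp upstream of the H2-Aa start, between H2-Aa and H2-Eb1 and in an intron of Gm20513 (34295930 to 34296426), was detected in the same Brg1fl/+ libraries at 17.7 and 21.1 fragments and in Brg1fl/fl library 3 at 11.1. The lists therefore hold a peak at the H2-Aa promoter in both genotypes, but give no height in enough libraries for a test. In Brg1fl/fl this rests on library 4 alone, where the peak ranked by q at 84.0% of its list.

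H2-Ab1 (ENSMUSG00000073421.6, chromosome 17, 34257689 to 34269419, plus strand) encodes the beta chain of I-A. At its coding start, a peak from 34263146 to 34263379 was seen in Brg1fl/fl library 4 alone, with a scaled height of 13.7 fragments. This was the 1 member region found only in Brg1fl/fl. At a noncoding start of the gene, the region from 34257695 to 34257925 had 12.0 and 14.6 fragments in Brg1fl/+ libraries 1 and 2. An intronic region 1465 bp upstream of the coding start (34261640 to 34261971) was seen in Brg1fl/+ library 1 at 14.1. No region of H2-Ab1 was shared by the genotypes.

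H2-Eb1 (ENSMUSG00000060586.11, chromosome 17, 34305867 to 34316674, plus strand), the gene for the beta chain of I-E, had the most widely detected region of the classical chains, from 34304602 to 34305126. Its summit lay 933 bp upstream of the start, in an exon of Gm20513, outside the X and Y module. Scaled heights were 15.6, 21.1, 18.9 and 13.5 fragments in Brg1fl/+ libraries 1 to 4 and 9.04, 16.6 and 10.9 in Brg1fl/fl libraries 1, 3 and 4. Brg1fl/fl library 2 had no peak and is left out of the fit. Brg1fl/fl libraries 1 and 4 lay below all Brg1fl/+ libraries, and library 3 lay within their range. In a wider fit over 6489 regions with a peak in at least 3 libraries of each genotype, the log2 difference was -0.53 (SE 0.26, 95% interval -1.05 to -0.01, limma, adjusted p = 0.176, 7 libraries), which did not pass the threshold. A region at the promoter of the neighbour H2-Eb2, from 34325432 to 34325707, was seen in Brg1fl/+ library 2 alone.

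By scaled summit height, the highest regions of the set were also the only ones called higher in Brg1fl/fl. They overlap promoter windows of H2-DMa (ENSMUSG00000037649.10, chromosome 17, 34119541 to 34139101, plus strand) and of Brd2. H2-DMa encodes the alpha chain of DM. Both higher regions lie in exons of Brd2, a gene for a broadly expressed bromodomain protein. The upstream region is at noncoding H2-DMa starts, the downstream region also at that of a protein-coding transcript (34122832), and neither can be assigned to H2-DMa rather than Brd2. The region from 34119143 to 34119842 had heights of 54.3, 59.2, 61.8 and 59.7 fragments in Brg1fl/+ libraries 1 to 4 and 78.9, 90.3, 87.6 and 70.2 in Brg1fl/fl libraries 1 to 4. Its mean rose from 58.7 ± 3.19 to 81.7 ± 9.1 (SD, n = 4), a log2 difference of 0.47 (SE 0.12, 95% interval 0.23 to 0.71; limma, adjusted p = 0.00738). The region from 34122003 to 34122826 had 70.4, 56.0, 72.0 and 69.9 fragments in Brg1fl/+ and 100.2, 100.9, 92.2 and 108 in Brg1fl/fl, also with no overlap. Its mean rose from 67.1 ± 7.45 to 100.4 ± 6.65 (SD, n = 4; log2 difference 0.59, SE 0.11, 95% interval 0.36 to 0.82; limma, adjusted p = 0.000556). The promoter windows of Brd2 overlap both regions.

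A higher call here is relative to the regions shared by all 8 libraries, on which scaled heights are centred. The mean factor over the lowest background was 1.32 in Brg1fl/+ and 0.747 in Brg1fl/fl. The calls therefore do not show a rise over library background. Values on the fold scale are not centred. Calls at the H2-DMa regions near Brd2 held in all settings but the fold scale, where the log2 differences were 0.17 (adjusted p = 0.513) and 0.28 (adjusted p = 0.298). Relative to the median of all regions on that scale they were 0.34 and 0.46. Local background there was among the highest of every list (above that of 99.2% to 99.8% of its peaks), at 10.7 to 13.8 times the lowest background of the library in Brg1fl/+ and 8.23 to 8.94 times in Brg1fl/fl. The fold scale gave 5 higher and 148 lower regions among all tested, against 297 and 250 with scaled heights.

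At a downstream start of protein-coding H2-DMa transcripts, 34135628, the region from 34135308 to 34135767 had a peak in all 8 libraries and no difference past the threshold. The 200 bases around its summit, chr17:34135390-34135589 on the plus strand, are shown because they hold 2 Y boxes (ATTGG, in capitals) just upstream of the start:

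H2-DMa downstream promoter: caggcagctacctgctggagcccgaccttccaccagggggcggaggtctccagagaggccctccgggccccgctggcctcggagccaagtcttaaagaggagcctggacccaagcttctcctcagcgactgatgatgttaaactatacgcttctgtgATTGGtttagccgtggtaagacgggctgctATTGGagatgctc

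Heights at this downstream promoter were 29.2, 37.3, 34.3 and 31.6 fragments in Brg1fl/+ libraries 1 to 4 and 26.3, 56.6, 31.3 and 34.6 in Brg1fl/fl libraries 1 to 4. Brg1fl/fl library 2 stood above all others, and the remaining libraries overlapped. The means were 33.1 ± 3.51 and 37.2 ± 13.4 (SD, n = 4), and the log2 difference was 0.11 (SE 0.18, 95% interval -0.26 to 0.48; limma, adjusted p = 0.75). Without Brg1fl/fl library 2 it was -0.11 (adjusted p = 0.745). The rise seen near Brd2 was therefore not detected at the downstream start, where the interval leaves room for a change in either direction.

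H2-DMb1 (ENSMUSG00000079547.4, chromosome 17, 34153072 to 34160230, plus strand) and H2-DMb2 (ENSMUSG00000037548.15, chromosome 17, 34143307 to 34151555, plus strand) encode alternative beta chains of DM. They are close copies of each other, as the X to Y stretches show, so the alignment could split reads between them and their separate values are uncertain. The H2-DMb2 region from 34143078 to 34143689 had heights of 23.0, 25.2, 13.7 and 21.4 fragments in Brg1fl/+ libraries 1 to 4. In Brg1fl/fl it had 14.8 and 12.4 in libraries 1 and 2 and no peak in 3 and 4. A further H2-DMb2 region over the X and Y module, from 34144995 to 34145307, was seen in Brg1fl/+ library 1 alone at 18.8. The H2-DMb1 region from 34152797 to 34153306, which holds its module, had 10.4 and 9.74 fragments in Brg1fl/+ libraries 1 and 2 and 12.4 and 10.0 in Brg1fl/fl libraries 2 and 4. H2-DMb1 was thus detected in equal numbers of libraries, and H2-DMb2 in 4 against 2.

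The regions named after the DO genes were detected in Brg1fl/+ libraries 1 and 2 alone, and weakly. Of all combined regions, 35.1% had a peak in Brg1fl/+ only. H2-Ob (ENSMUSG00000041538.16, chromosome 17, 34238903 to 34254414, plus strand), for the beta chain of DO, had a promoter region from 34238663 to 34239089 that holds its X and Y elements. Its heights were 5.74 and 7.3 fragments in Brg1fl/+ libraries 1 and 2. H2-Oa (ENSMUSG00000024334.9, chromosome 17, 34092340 to 34095234, plus strand), for the alpha chain, had no promoter region in any library. Its only region, 9367 bp downstream of its last start in an intron of CR974462.2 (34101678 to 34101996), had 5.74 and 9.74 fragments in the same libraries. These heights are among the lowest of the set.

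**Figure D3:**
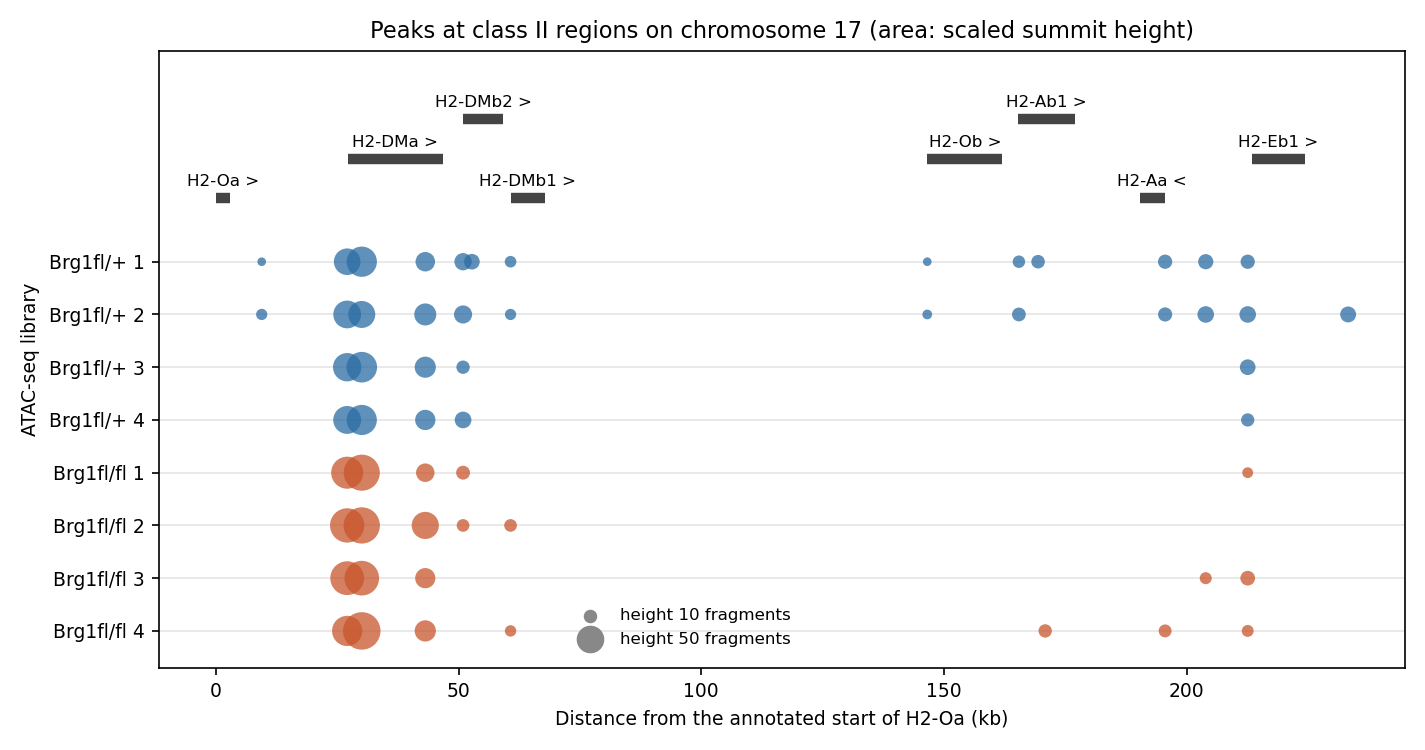
Peaks at class II regions on chromosome 17 in each of the 8 libraries, by distance in kb from the annotated start of H2-Oa; circle area is the scaled summit height, and gene bars carry an arrow for the strand. The H2-DMa part has circles in every library. From H2-Ob to the region between H2-Aa and H2-Eb1, circles appear only in Brg1fl/+ libraries 1 and 2 and in Brg1fl/fl libraries 3 and 4.

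Set beside the whole assay, the 5 class II regions with a peak in all 8 libraries gave 1 lower and 2 higher calls. Their median log2 difference was 0.11. Over all 4558 regions the median was 0.0, a value that the scaling sets and does not measure. Of all these regions, 250 were lower and 297 higher on this scale. On the fold scale, whose median was -0.17, 148 were lower and 5 higher. Both higher class II calls are the H2-DMa regions near Brd2, which cannot be assigned to H2-DMa rather than Brd2. The log2 differences of the others were -0.36 at Ciita, 0.11 at H2-DMa -138 bp and -0.51 at Cd74. The class II regions were poor in CpG: the observed over expected ratio in the 300 bases around the summit had a median of 0.226 over 14 of the 18 member regions (the 4 promoter regions of Ciita, Cd74 and H2-Ab1, which have no RefSeq window, were left out), against 0.846 over all promoter regions and 0.267 over regions elsewhere. Letters of the X box were within these bases in 3 of 14 member regions (1.53% of all regions) and GCAAC followed by ATTGG in 4 of 14 (1.49%). Of these 14, the 6 regions with either set of letters around the summit were each detected in at most 4 libraries. The Cd74 promoter region, found in all 8 libraries, was among those left out, and near matches to the letters were not counted. A near match, gactgatg, differs from the X box in 1 letter and lies upstream of the Y boxes printed for H2-DMa -138 bp. That region was also found in all 8 libraries, so the exact letters cannot show how detection goes with the module. The median CpG ratio of regions found in all 8 libraries was 0.884.

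**Figure D4:**
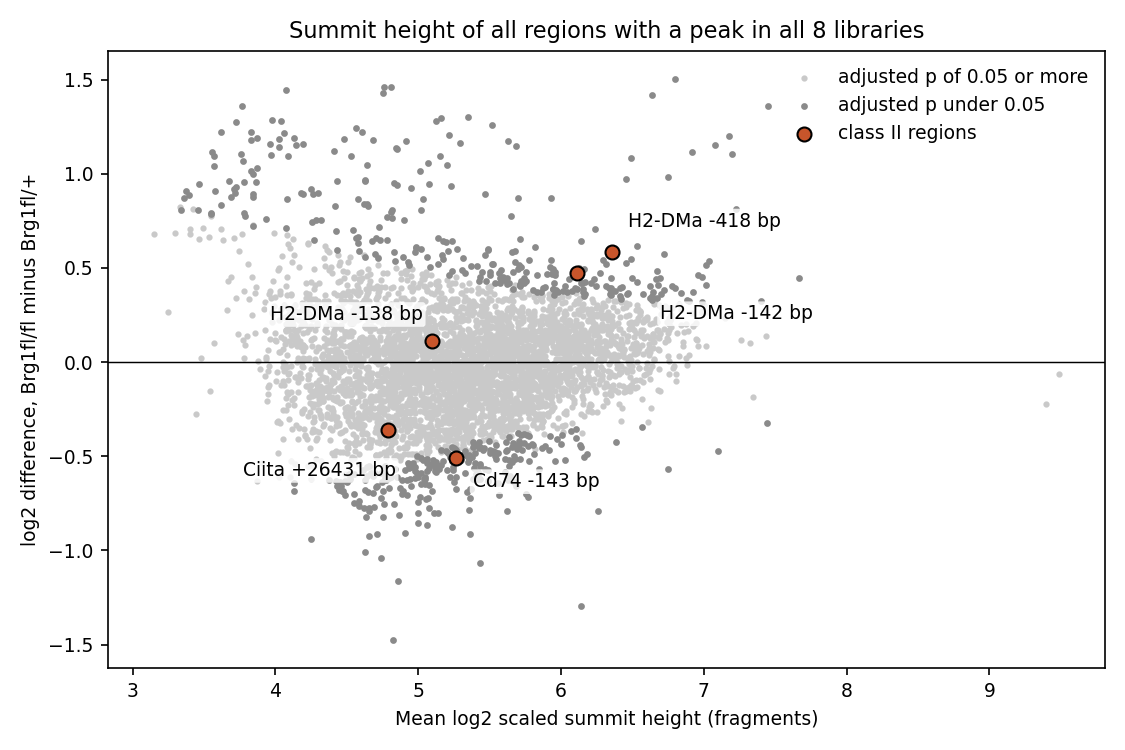
Mean log2 scaled summit height and log2 difference (Brg1fl/fl minus Brg1fl/+) of the 4558 regions with a peak in all 8 libraries; dark grey points have an adjusted p under 0.05 (limma), and class II regions are ringed. Cd74 lies among the lower and the 2 H2-DMa regions near Brd2 among the higher calls, and Ciita and H2-DMa -138 bp are not called.

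Genes for the factors that bind class II promoters were the best covered companions. All 7 (Rfx5, Rfxank, Rfxap, Nfya, Nfyb, Nfyc and Creb1) had a promoter region in all 8 libraries, 1 of them lower and 0 higher in Brg1fl/fl, beside the shares of all genes and regions given above (22.4% in all 8 libraries, 5.48% lower and 6.52% higher). The lower promoter was that of Rfx5, which encodes the DNA-binding subunit of RFX, with means of 33.7 ± 1.09 and 22.2 ± 3.28 fragments (SD, n = 4; log2 difference -0.61, SE 0.18; limma, adjusted p = 0.0198). The Rfx5 call was lost with libraries averaged in pairs (adjusted p = 0.0508, and 0.0983 with only Brg1fl/+ libraries averaged), on the fold scale (-0.54, adjusted p = 0.0813), without Brg1fl/+ library 2 (-0.6, adjusted p = 0.0601) and without Brg1fl/fl library 1 (-0.56, adjusted p = 0.0648). Its partners Rfxank (log2 difference -0.21, adjusted p = 0.373, limma) and Rfxap (0.19, adjusted p = 0.414, limma) did not pass the threshold, nor did the NF-Y genes or Creb1.

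Among 7 genes for antigen processing, 6 had a promoter region and 2, the protease genes Ctsh and Lgmn, had it in all 8 libraries with no call. Ctsl (cathepsin L) was detected in 1 Brg1fl/+ and 3 Brg1fl/fl libraries, and Ifi30 (the thiol reductase of lysosomes) in 2 and 0. Ctss (cathepsin S) had no peak. Of 3 genes for turnover of surface class II, the ubiquitin ligase gene March8 was detected in 2 and 1 libraries, Cd83, whose product opposes that turnover, in 2 and 3, and March1 in none. Among 8 neighbours on chromosome 17, Brd2 was the only called gene, through the regions shared with H2-DMa. The promoter region shared by Psmb9 and Tap1 was in all 8 libraries with no call (log2 difference 0.12, limma, adjusted p = 0.68). Psmb8, for an immunoproteasome subunit, was detected in 2 and 0 libraries.

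B cell identity was checked at the promoters of 9 B cell genes, of which 6 had a peak in any library. Ms4a1 (CD20) and Pax5 were detected in all 8 libraries without a call, Fcer2a, the gene of CD23 whose promoter drives the Cre, in 2 Brg1fl/+ and 0 Brg1fl/fl libraries, and Cd79b, Cd22 and Blk had no promoter peak in any. Lack of a peak in these lists therefore cannot be read as lack of expression. No promoter of 5 T cell, 2 natural killer or 3 erythroid genes was detected. Of 7 myeloid and dendritic genes, whose cells carry class II too, only Flt3 had a peak, in 1 Brg1fl/+ library. Plasma cell genes had a promoter peak at all 3 loci, Sdc1 in 3 Brg1fl/+ and 4 Brg1fl/fl libraries, Prdm1 in 3 and 2 and Xbp1 in 2 and 4. Plasma cells are known to silence Ciita, and the part of such cells in these values was not tested.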

How the data were processed

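Of 16 samples, the 8 ATAC-seq libraries were analysed, and 8 RNA-seq libraries were not analysed here. The authors used Bowtie2 for alignment of the read pairs to mm10 and MACS2 for peaks, 1 list per library, and the versions and options are not given in the sources used here. The deposited lists hold the fold of each summit over local background (a ratio) and −log10 p and −log10 q, with no read counts, so the authors' DESeq2 comparison of coverage was not repeated. Fragments at the summit were solved from fold and −log10 p to within 0.002 (99.69% to 99.8% of peaks per list), scaled by median of ratios and taken as log2. Overlapping peaks were joined into regions, and 1 bp of overlap counted as detection. Genotypes were compared with limma 3.58.1 in R 4.3.3 (empirical Bayes with trend, two-sided, Benjamini-Hochberg over 4558 regions of chromosomes 1 to 19 and X, threshold 0.05), and detection counts were not tested. The smallest height in a list was 5 to 8 fragments, which sets the precision, and intervals cover the spread between libraries. Genes and starts are from GENCODE vM21 (GRCm38). The members and companion lists were chosen with earlier results of these data known. 1 gene of the B cell marker list is not reported here. All members are named, and companions where a promoter was called or its number of detecting libraries differed by 2 or more between genotypes, apart from examples added after the values were seen. A search for promoters most like that of Ciita was not made, since Ciita has none in all 8 libraries. On values simulated with the formulas that the recovery inverts, 1727 of 1727 heights were recovered, which checks the solving step only. On counts simulated with spread added beyond sampling, 38.0% of regions changed 1.5-fold and 88.0% of those changed 2-fold were called. Python 3.11.15 was used with numpy 2.4.6, pandas 2.3.3, scipy 1.17.1 and pysam 0.24.0.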

Additional observations from a re-analysis of the deposited data

Results flagged for a closer look

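Within the 4 libraries of a genotype, Dixon's test at 95% set a library apart in 2 of 16 groups of values, and it does so by chance in about 1 in 20. At the H2-DMa region 418 bp upstream of its nearest start, Brg1fl/+ library 2 had a scaled summit height of 56.0 fragments, and the other Brg1fl/+ libraries had 69.9 to 72.0. Among Brg1fl/fl libraries, library 4 detected 9 of the 18 member regions and each of the others detected 7. With the others tied, the test flags any gap, so the rate of 1 in 20 does not apply to this count.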

How the results depend on the processing

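Of 124 values of the counts under other settings 97 stayed within 1.5 times the count and 27 moved, and of 114 values for single regions, Rfx5 included, 98 kept direction and call. Subtracting the local background, averaging only Brg1fl/+ libraries and comparing Brg1fl/+ libraries 3 and 4 alone were chosen after seeing the data. The settings for Rfx5 were also run only then. The cause of these changes was not tested.

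Members with a promoter region in all libraries were 1 (H2-DMa) with a −log10 q of at least 10 or 50% of a region covered, and 2 to 3 when each library was left out. Promoter regions with fewer Brg1fl/fl libraries were 2 of 7 in lists of equal length, 4 of 10 when placed by their centre, 2 of 9 with Brg1fl/+ libraries 3 and 4 alone, and 6 to 8 when each library was left out. Other regions with fewer were 1 of 2, 7 of 8 and 0 of 2 in these settings, and 3 to 4 when each library was left out. No share over all regions is given for the detection counts in these settings. The lower member call (Cd74) became 0 on the fold scale, with quantile normalization (log2 difference -0.46, adjusted p = 0.0584, limma), with libraries averaged in pairs, or with only Brg1fl/+ libraries averaged, and was 0 to 1 when each library was left out. In 12 other settings its adjusted p was 0.0224 to 0.0443. Higher member calls became 0 on the fold scale, where H2-DMa -138 reversed to -0.18 (adjusted p = 0.541), and were 2 in all other settings; H2-DMa -138 lay between -0.11, without Brg1fl/fl replicate 2, and 0.26 when each library was left out. Over all regions, lower calls were 148 on the fold scale, 153 with libraries averaged in pairs, 62 with only Brg1fl/+ libraries averaged and 419 of 6489 with at least 3 libraries per genotype, and 138 to 206 when each library was left out. Higher calls were 5, 190 and 153 in the first 3 of these settings and 173 to 290 when each library was left out.

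The labels do not say whether replicate numbers pair libraries. Same-numbered libraries of the genotypes had correlations of deviations of -0.06 to -0.01. These cannot settle it, because the spread within a genotype was about that of sampling. With the replicate number as a block, 220 regions were lower and 258 higher, and the members gave 1 lower and 2 higher calls. Depth limits detection: a region under 5 to 8 fragments at its summit is in no list.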
